A study of Mus musculus with 6 samples.

Results

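Genes of xenobiotic metabolism were followed in CMT93, a mouse colorectal carcinoma line in long use, grown as spheroids with or without the saturated fatty acid palmitate. They were taken by gene symbol, by a rule that used no measured values, though earlier results of these data were known. They covered cytochrome P450 genes of numbers beginning with 1 to 4 (without Cyp26), flavin monooxygenases and aldehyde dehydrogenases (without Aldh1a genes and Aldh1l2). Further families were aldo-keto reductases of the Akr1 and Akr7 groups, carbonyl reductases, carboxylesterases, epoxide hydrolases, glucuronosyltransferases, sulfotransferases and glutathione S-transferases. This gave 120 of the 23399 genes counted, and 85 of them passed the filter on low counts among 14987 genes tested. Pseudogenes with such symbols, marked -ps, are included, though they encode no enzyme. The 3 palmitate libraries came from wild-type CMT93 cells given 200 µM palmitate bound to bovine serum albumin, for 1 week as a monolayer and then for 5 days as spheroids. The 3 vehicle libraries came from the same line, given albumin incubated with the same volume of ethanol over the same times. All 6 cultures grew in serum-containing medium, on soft agar with 0.25% Matrigel in the spheroid stage. This is a single tumour line, so it stands for no normal colon. The series as a whole concerns steatosis and colorectal liver metastases, and the comparison asks how palmitate alters the transcripts of the tumour cells.

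Foreign compounds are usually handled in steps. Phase I enzymes oxidise, reduce or hydrolyse a compound and so add or expose a reactive group, and phase II enzymes join that group to glucuronate, sulfate or glutathione, after which transporters export the product. Many of these enzymes also act on the body's own steroids, fatty acids, aldehydes and eicosanoids, and intestinal epithelium is one of the tissues that carry them.

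Libraries held 22.5, 22.7 and 22.9 M counts with palmitate, against 18.9, 21.9 and 21.6 M with vehicle, so every palmitate library was deeper. Samples of a group are numbered, with nothing said of separate cultures, so the spread behind each p-value is that of these libraries and may be technical only. Epithelial markers were abundant, with a summed level of 6778 to 6873 CPM (counts scaled to library size) with palmitate and 7384 to 7463 CPM with vehicle. Of 9 tested, 3 were higher, 4 lower and 2 not called, beside 27.4% higher and 25.4% lower of all tested genes. However, Krt20 was at 0.237 and 0.146 CPM and Cdx2 at 2.46 and 1.72 CPM with palmitate and vehicle, both low for intestinal markers. Markers of fibroblasts, immune cells, endothelium and hepatocytes summed to 16.0 to 16.7 CPM with palmitate and 20.1 to 22.3 CPM with vehicle. Of the 23 measured, 7 were tested, of which 1 was higher, 5 lower and 1 not called, beside the same shares of all tested genes. The part of these markers in the results was not tested. Cd68 alone made up 9.66 CPM of that sum with palmitate and 7.14 CPM with vehicle. The 5 that were lower were Col1a1 (0.710 CPM with palmitate, 1.45 CPM with vehicle), Acta2 (1.26 and 3.48 CPM, palmitate before vehicle), Ptprc (0.266 and 0.836 CPM), Cdh5 (1.45 and 2.21 CPM) and the hepatocyte gene Tat (0.563 and 3.21 CPM, edgeR log2 fold change -2.50, adjusted p = 1.23e-17). Dcn, Pdgfra and Lyz2 averaged 0.0885, 0.0888 and 0.0444 CPM with palmitate and were at 0 with vehicle. Pecam1 and the hepatocyte products Alb, Apoa1 and Ttr were below 1 CPM in both groups and not tested.

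More enzyme genes fell than rose with palmitate, and more falls than rises reached 2-fold, mostly at low counts. Of the 85 tested genes, 24 were higher and 35 lower at an adjusted p under 0.05, and 26 were not called (edgeR quasi-likelihood test, two-sided, adjusted over all tested genes). Across all tested genes 27.4% were called higher and 25.4% lower, 52.8% in either direction, beside 28.2% and 41.2% of the enzyme genes. The median log2 fold change of the enzyme genes was -0.06, that of all tested genes 0.00. At least 2-fold changes were called higher for 3 enzyme genes and lower for 11, where the background was 1.69% higher and 2.82% lower, 4.51% in all. Apart from Cyp2f2 (7.84 CPM) and Gsta2 (8.80 CPM), the genes with such falls averaged at most 2.36 CPM, where few counts make fold changes imprecise. Among the 74 enzyme genes of at least 1 CPM, 2 were higher and 7 lower by this much. Of all 13223 genes of at least 1 CPM, 182 were higher and 227 lower. The 3 palmitate libraries lay above all vehicle libraries for 26 enzyme genes and below them for 36, beside 29.7% and 28.1% of all tested genes, 57.8% together. Against a minimum change of 1.2-fold, glmTreat called 33 enzyme genes, 11 higher and 22 lower, where it called 15.2% of all tested genes. The counts cover genes that passed the filter and are no statement on all 120. In bulk RNA, fewer cells of a type and less RNA per cell cannot be told apart, here and in every result that follows.

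Conjugation enzymes were more often called lower than higher, while phase I calls were balanced. Among 55 tested phase I genes, 19 were higher, 20 lower and 16 not called, and their median log2 fold change was -0.04. Among 30 tested phase II genes, 5 were higher, 15 lower and 10 not called, with a median of -0.19. The shares were 34.5% higher and 36.4% lower in phase I and 16.7% and 50.0% in phase II, beside 27.4% and 25.4% of all tested genes. Whether the phases differ from each other was not tested. Summed over their genes, the phase I families stood at 3955, 3972 and 3967 CPM in the palmitate libraries and at 3522, 3550 and 3563 CPM in the vehicle libraries. The phase II families stood at 1155, 1188 and 1201 CPM with palmitate and at 1257, 1288 and 1288 CPM with vehicle. Neither sum overlapped between the groups, and the summed phase I level was higher although 19 of its genes were called higher and 20 lower. Within it, Cyp1b1 alone averaged 1092 CPM with palmitate and 780 CPM with vehicle, and Akr1c18 192 and 77.2 CPM. The higher phase I sum is therefore no rise of the phase as a whole. The sums are not corrected for transcript length.

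**Figure D1:**
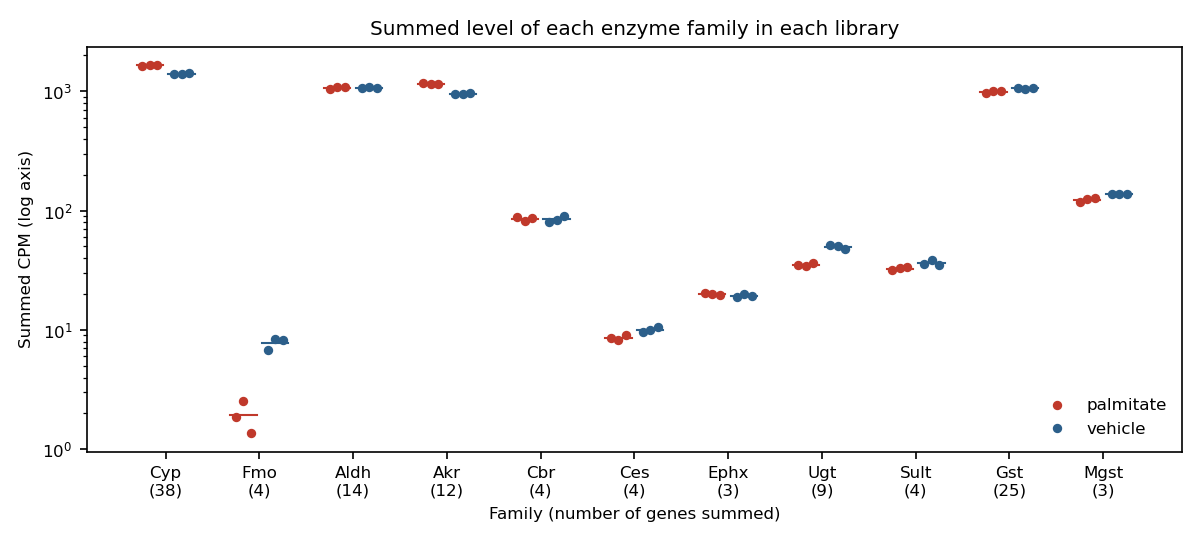
Summed CPM (log axis) of all genes of each enzyme family, with the number of genes under its name. Each point is 1 library, palmitate left of vehicle, and bars are group means (n = 3 each). Cyp and Akr sums are higher with palmitate, Fmo, Ces, Ugt, Sult, Gst and Mgst sums are lower, and the Aldh, Cbr and Ephx points of both groups overlap. Cyp1b1 alone makes up 66.7% of the Cyp sum with palmitate and 55.6% with vehicle.

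Abundance was concentrated in a few genes. On the scale of mean CPM per kilobase of exon, which allows genes to be compared, the omega-class transferase gene Gsto1 (238), Aldh3a1 (171), Akr1a1 (164), Cyp1b1 (160) and Gsta4 (140) led. At the low end, the 35 genes under the filter summed to 3.77 to 4.62 CPM in the palmitate libraries and 4.95 to 5.63 CPM in the vehicle libraries, and Cyp2d10 among them averaged 0.148 CPM with palmitate and 0.612 CPM with vehicle. They include Cyp3a11 and Cyp1a2, major P450 genes of the liver, and Ugt1a1, which conjugates bilirubin. None of the 35 entered the test reported here. In the authors' deposited table, Cyp2d10 had a log2 fold change of -2.05 (q = 0.00988).

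Among cytochrome P450 genes, whose products insert an oxygen atom into their substrates, Cyp1b1 rose while Cyp2f2, Cyp2s1, Cyp27a1 and Cyp11a1 fell. Of 21 tested P450 genes, 6 were higher, 7 lower and 8 not called. That is 28.6% higher and 33.3% lower, not far from the 27.4% and 25.4% of all tested genes. The pseudogenes Cyp2c52-ps and Cyp4f41-ps are among those not called. Cyp1b1 (ENSMUSG00000024087.5), which oxidises polycyclic aromatic hydrocarbons and estradiol, had 1092, 1091 and 1092 CPM in the palmitate libraries, against 775, 782 and 782 CPM in the vehicle libraries. The groups were far apart next to their spread, with an edgeR log2 fold change of 0.49 (SE 0.0151, adjusted p = 5.49e-46). This gene made up 66.7% ± 0.137 of all P450 CPM with palmitate and 55.6% ± 0.271 with vehicle (SD, n = 3 each). Its relative Cyp1a1, which acts on many of the same hydrocarbons, had 246, 256 and 249 CPM with palmitate, against 263, 263 and 270 CPM with vehicle. These groups did not overlap either, but the difference was small and of the other sign (edgeR log2 fold change -0.09, SE 0.0198, adjusted p = 0.000151). It was not called against a minimum change of 1.2-fold.

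Both genes are textbook targets of the aryl hydrocarbon receptor, which binds the letters GCGTG, so their promoters are shown to place these letters. The windows run from 250 bases before the start of the gene to 50 after it, 5′ to 3′ on the strand of the gene, from RefSeq for build GRCm38.p6, and capitals mark GCGTG or its reverse complement. Cyp1b1 lies on the minus strand at chr17:79715012-79715311 and Cyp1a1 on the plus strand at chr9:57697363-57697662.
Cyp1b1: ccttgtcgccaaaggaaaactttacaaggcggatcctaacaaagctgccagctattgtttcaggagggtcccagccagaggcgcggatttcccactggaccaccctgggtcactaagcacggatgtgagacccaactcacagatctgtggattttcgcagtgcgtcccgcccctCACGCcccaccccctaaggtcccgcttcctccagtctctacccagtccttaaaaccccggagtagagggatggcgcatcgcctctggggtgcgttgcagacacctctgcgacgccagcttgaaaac
Cyp1a1: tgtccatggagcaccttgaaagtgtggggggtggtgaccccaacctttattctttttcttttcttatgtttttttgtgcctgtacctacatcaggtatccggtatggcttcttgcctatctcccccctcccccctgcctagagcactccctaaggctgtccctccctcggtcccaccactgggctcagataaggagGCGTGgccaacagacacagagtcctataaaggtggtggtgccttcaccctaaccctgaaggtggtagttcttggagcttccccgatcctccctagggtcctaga
Each window held 1 match, beginning at position -76 in Cyp1b1 and -54 in Cyp1a1, where the start is position 0. Over both strands GCGTG occurred in 32.4% of 32851 RefSeq windows, and in 29.8% of the 84 windows of the 71 tested enzyme genes that could be matched. The same letters are a form of the core bound by hypoxia-inducible factors, and a match is a description, not a binding site. The antioxidant response element core TGACNNNGC occurred in 12.4% of all windows and 8.33% of those of the enzyme genes, and TATAAA in 13.6% and 10.7%.

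The P450 genes that fell were mostly of low or middle abundance. Cyp2f2, which activates naphthalene in mouse airway, had 3.76, 3.06 and 3.48 CPM in the palmitate libraries and 11.1, 13.2 and 12.4 CPM in the vehicle libraries. No palmitate library came near the vehicle level (edgeR log2 fold change -1.84, SE 0.102, adjusted p = 1e-28). Cyp2s1, a P450 of epithelia outside the liver, had 63.1, 62.5 and 59.4 CPM with palmitate, against 107, 101 and 105 CPM with vehicle (edgeR log2 fold change -0.76, SE 0.0314, adjusted p = 5.55e-37). A pair of enzymes of sterol side chains moved the same way. Cyp27a1, sterol 27-hydroxylase of bile acid synthesis, averaged 11.0 ± 0.983 CPM with palmitate and 18.3 ± 0.153 CPM with vehicle, and Cyp11a1, which cuts the cholesterol side chain to begin steroid synthesis, averaged 0.858 ± 0.105 CPM with palmitate and 1.66 ± 0.390 CPM with vehicle (SD, n = 3 each).

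The P450 genes that rose include fatty acid hydroxylases. Cyp2u1, which hydroxylates long-chain fatty acids, had 1.79, 1.38 and 1.98 CPM with palmitate, against 0.737, 1.05 and 1.15 CPM with vehicle, with no overlap at these low levels (edgeR log2 fold change 0.79, SE 0.225, adjusted p = 0.00201). Cyp4v3, the mouse counterpart of a human fatty acid omega-hydroxylase, averaged 4.82 ± 0.599 CPM with palmitate and 2.82 ± 0.238 CPM with vehicle, and Cyp4f16 averaged 27.1 ± 0.826 and 21.6 ± 0.200 CPM (SD, n = 3 each). Of 6 tested Cyp4 genes 3 were higher, beside 27.4% of all tested genes, and 3 not called, among them the pseudogene Cyp4f41-ps. The call of the third, Cyp4b1 (0.666 CPM with palmitate, 0.317 CPM with vehicle), was lost with DESeq2 (adjusted p = 0.124), after thinning to the shallowest library and without palmitate replicate 2. Cyp21a1, the steroid 21-hydroxylase, was called higher (0.71 on the log2 scale, adjusted p = 0.0353, edgeR), a call lost with no count filter, with DESeq2 and without vehicle replicate 1 or any palmitate replicate. Its value is uncertain, since 21.3% of the 50-base stretches of its transcripts also occur in another gene. Cyp3a13 (-0.14), a Cyp3a gene with intestinal expression, lost its call with DESeq2 and without vehicle replicate 2 or palmitate replicate 2. Cyp39a1 (-0.15), an oxysterol hydroxylase, lost it without palmitate replicate 2.

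**Figure D2:**
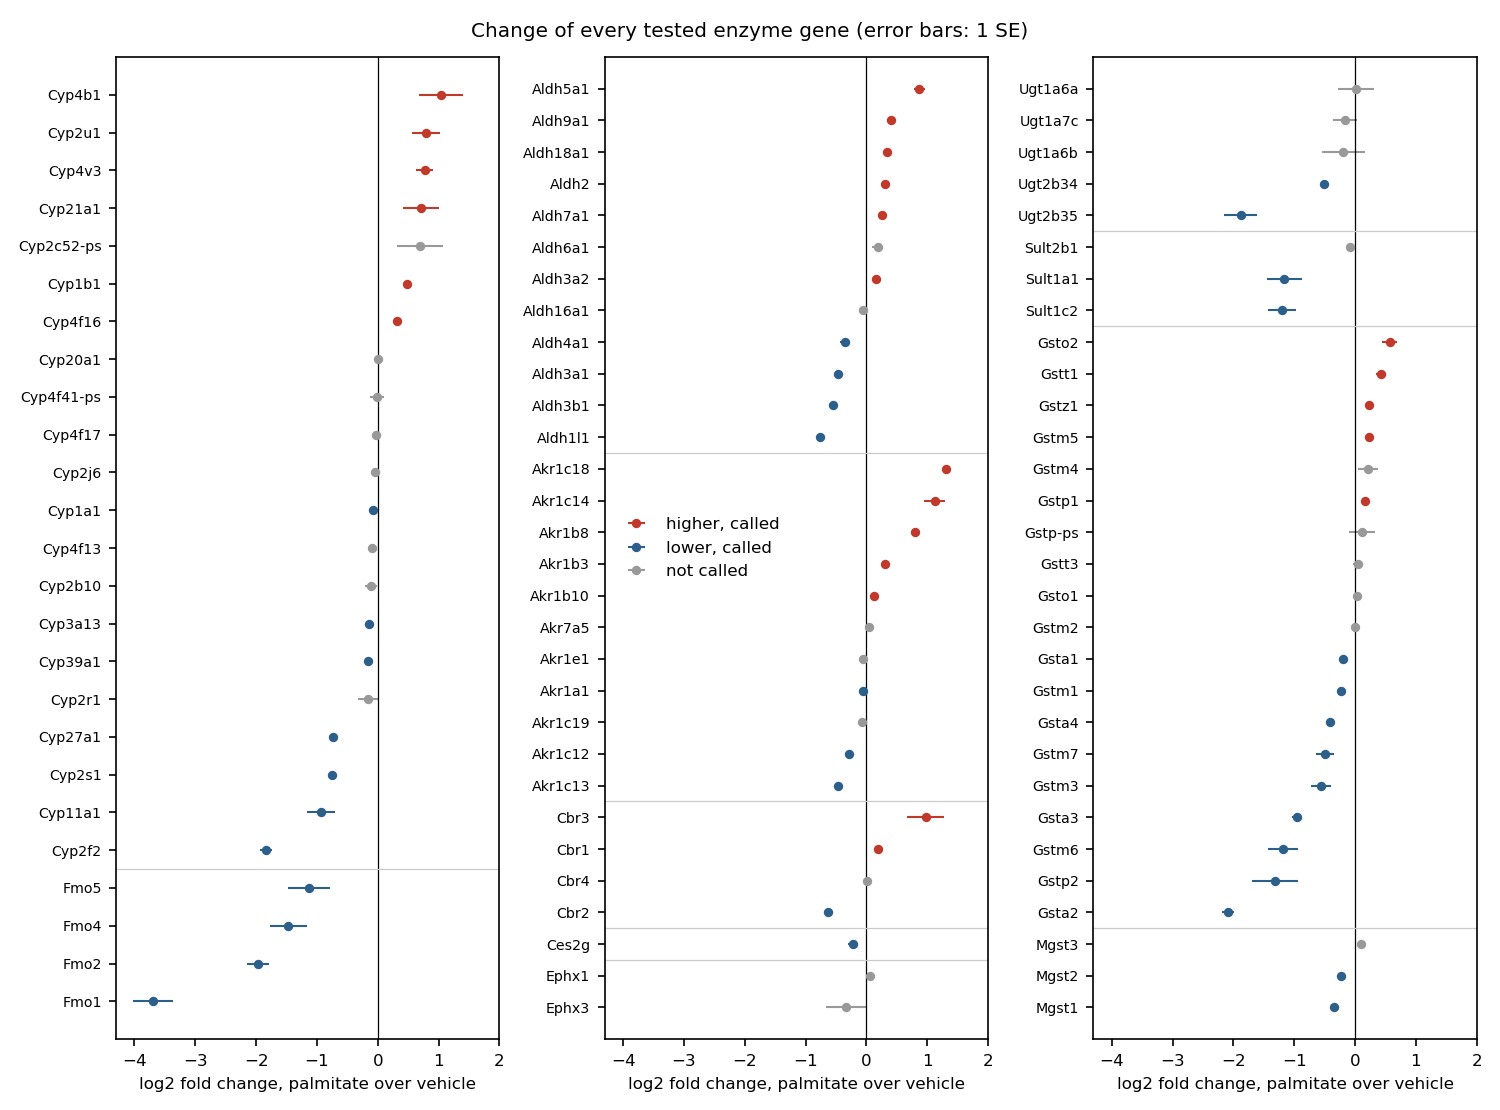
Log2 fold change, palmitate over vehicle, of all 85 tested enzyme genes, by family. Points are edgeR estimates and bars 1 standard error; red genes were called higher, blue lower and grey not called. Fmo1 (-3.70) and Gsta2 (-2.09) lie farthest left and Akr1c18 (1.32) farthest right.

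All 4 flavin monooxygenase genes were called lower, beside 25.4% of all tested genes. Their enzymes oxidise nitrogen and sulfur atoms of drugs and diet compounds. Fmo1 (ENSMUSG00000040181.15) had 2, 5 and 3 raw counts in the palmitate libraries and 40, 44 and 41 in the vehicle libraries, and its log2 fold change was the second lowest of all tested genes. Fmo2 had 0.940, 1.15 and 0.793 CPM with palmitate, against 3.11, 4.05 and 4.11 CPM with vehicle (edgeR log2 fold change -1.97, SE 0.188, adjusted p = 1.31e-15). Fmo4 had 0.492, 0.754 and 0.176 CPM with palmitate, against 0.843, 1.41 and 1.66 CPM with vehicle (edgeR log2 fold change -1.47, SE 0.304, adjusted p = 3.16e-05). Palmitate libraries lay below all vehicle libraries for each of the 4, as for 28.1% of all tested genes. Fmo5, which also inserts oxygen into ketones, averaged 0.341 ± 0.0692 CPM with palmitate and 0.747 ± 0.142 CPM with vehicle (SD, n = 3 each), and its call was lost with DESeq2 (adjusted p = 0.0772). The family was scarce, at 1.37 to 2.53 CPM in all with palmitate and 6.74 to 8.37 CPM with vehicle, so counting error is large for each gene.

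Aldehyde dehydrogenases, which turn aldehydes into acids, split by gene, and their summed level overlapped between the groups. Of 12 tested, 6 were higher (50.0%), 4 lower (33.3%) and 2 not called, beside 27.4% higher and 25.4% lower of all tested genes. The family summed to 1046, 1074 and 1071 CPM in the palmitate libraries and 1064, 1073 and 1065 CPM in the vehicle libraries. Aldh3a1, known for clearing aromatic and lipid-derived aldehydes in the cornea, had 270, 284 and 280 CPM with palmitate, against 379, 387 and 389 CPM with vehicle. It was lower in each palmitate library (edgeR log2 fold change -0.47, SE 0.0189, adjusted p = 5.56e-38). Its chromosomal neighbour Aldh3a2, the fatty aldehyde dehydrogenase, had 180, 178 and 185 CPM with palmitate, against 162, 159 and 163 CPM with vehicle (edgeR log2 fold change 0.16, SE 0.0223, adjusted p = 8.11e-10), though not past a minimum change of 1.2-fold. Aldh1l1, which oxidises formyl-tetrahydrofolate in one-carbon metabolism, had 19.9, 20.6 and 19.6 CPM with palmitate, against 33.2, 35.6 and 32.9 CPM with vehicle, and Aldh3b1 fell by 0.55 on the log2 scale.

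Among the dehydrogenases that rose were enzymes of amino acid and carnitine metabolism. Aldh5a1, succinic semialdehyde dehydrogenase of GABA breakdown, had 11.9, 13.1 and 13.4 CPM with palmitate, against 7.06, 7.10 and 6.79 CPM with vehicle. The palmitate libraries were all above the vehicle libraries (edgeR log2 fold change 0.87, SE 0.0833, adjusted p = 1.2e-15). Aldh2, which clears acetaldehyde, averaged 238 ± 3.69 CPM with palmitate and 194 ± 4.15 CPM with vehicle. Aldh9a1, an enzyme of carnitine synthesis, averaged 106 ± 0.799 and 80.4 ± 0.717 CPM, and Aldh18a1, which begins proline synthesis, 123 ± 2.94 and 97.8 ± 4.15 CPM, again palmitate before vehicle (SD, n = 3 each). Aldh4a1, which completes proline breakdown, was lower (-0.35), but 30.0% of the 50-base stretches of its transcripts also occur in another gene, so its value is uncertain.

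Aldo-keto reductases held 2 of the 3 called rises of at least 2-fold. They reduce aldehydes and ketones, among them steroids and sugars, and of 11 tested, 5 were higher, 3 lower and 3 not called. Shares were 45.5% higher and 27.3% lower, beside 27.4% and 25.4% of all tested genes. Akr1c18 (ENSMUSG00000021214.15), the 20-alpha-hydroxysteroid dehydrogenase that inactivates progesterone, had 190, 195 and 193 CPM in the palmitate libraries, against 75.0, 79.8 and 76.7 CPM in the vehicle libraries. It was 2.49-fold higher (edgeR log2 fold change 1.32, SE 0.0257, adjusted p = 7.58e-61) and ranked at 3 among all tested genes by p. Akr1b8, a relative of aldose reductase, had 212, 208 and 209 CPM with palmitate, against 117, 121 and 121 CPM with vehicle (edgeR log2 fold change 0.81, SE 0.0229, adjusted p = 8.2e-49). Akr1c14, a 3-alpha-hydroxysteroid dehydrogenase, had 3.09, 3.73 and 3.52 CPM with palmitate, against 1.84, 1.46 and 1.48 CPM with vehicle (edgeR log2 fold change 1.12, SE 0.169, adjusted p = 2.12e-08). Akr1b3, aldose reductase itself, averaged 128 ± 1.36 CPM with palmitate and 103 ± 4.28 CPM with vehicle (SD, n = 3 each). Akr1a1, the most abundant of the family, had 449, 442 and 434 CPM with palmitate and 458, 462 and 464 CPM with vehicle, a difference of -0.06 on the log2 scale. The call of Akr1b10 (0.12) was lost with DESeq2, and again when vehicle replicate 2 or 3 or palmitate replicate 1 or 3 was left out.

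Of 4 tested carbonyl reductase genes 2 were higher, 1 lower and 1 not called. The single carboxylesterase gene tested of 4 was lower, and both tested epoxide hydrolase genes were not called. Across all tested genes 27.4% were higher and 25.4% lower, and counts of so few genes cannot be told from these shares. Cbr2, a carbonyl reductase of mouse lung, had 10.4 to 12 CPM in the palmitate libraries, against 16.4 to 18.8 CPM in the vehicle libraries, with no overlap (edgeR log2 fold change -0.63, SE 0.0694, adjusted p = 7.01e-13). Cbr1, which reduces prostaglandins and quinones, averaged 46.8 ± 0.714 CPM with palmitate and 41.2 ± 2.09 CPM with vehicle (SD, n = 3 each). The call of its neighbour Cbr3 (0.97) was lost with DESeq2, after thinning and without palmitate replicate 3, where the log2 fold change was 0.74. Ces2g, the carboxylesterase gene tested, had 8.50, 8.16 and 8.98 CPM with palmitate and 9.37, 9.83 and 10.5 CPM with vehicle. Its call (-0.22, adjusted p = 0.0253, edgeR) was lost with DESeq2 and without vehicle replicate 3 or palmitate replicate 1 or 2. Ephx1, the microsomal epoxide hydrolase, had 19.7, 19.5 and 19.1 CPM with palmitate, against 18.3, 19.5 and 18.3 CPM with vehicle, and these groups meet. It was not called (log2 fold change 0.06, 95% interval -0.06 to 0.17).

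The 4 tested alpha-class glutathione S-transferase genes were called lower, beside 25.4% of all tested genes, and Gsta5 was not tested. These enzymes join glutathione to reactive compounds, and the alpha class also detoxifies lipid peroxidation products. Gsta2 (ENSMUSG00000057933.11) had 3.04, 3.37 and 3.61 CPM in the palmitate libraries, against 15.4, 13.2 and 14.2 CPM in the vehicle libraries. It was 4.25-fold lower (edgeR log2 fold change -2.09, SE 0.0979, adjusted p = 2.39e-33). Of the 50-base stretches of its transcripts, 49.8% also occur in another gene, so reads may be shared and the value is uncertain. Gsta1 (-0.19) shared 90.5%, and its call was lost with DESeq2 and without vehicle replicate 1 or palmitate replicate 1. Gsta3 had 7.83, 7.54 and 8.41 CPM with palmitate, against 15.3, 14.8 and 16.1 CPM with vehicle (edgeR log2 fold change -0.96, SE 0.0765, adjusted p = 2.1e-19). Gsta4, which acts on 4-hydroxynonenal, was the most abundant of the class, and the 4 tested genes with Gsta5 summed to 173, 178 and 175 CPM with palmitate and 245, 241 and 251 CPM with vehicle.

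The promoter of Gsta2, the transferase with the largest fall, is shown because alpha-class genes are known targets of both xenobiotic and antioxidant response elements. It lies on the minus strand at chr9:78347096-78347395 (RefSeq, GRCm38.p6), and capitals mark GCGTG.
Gsta2: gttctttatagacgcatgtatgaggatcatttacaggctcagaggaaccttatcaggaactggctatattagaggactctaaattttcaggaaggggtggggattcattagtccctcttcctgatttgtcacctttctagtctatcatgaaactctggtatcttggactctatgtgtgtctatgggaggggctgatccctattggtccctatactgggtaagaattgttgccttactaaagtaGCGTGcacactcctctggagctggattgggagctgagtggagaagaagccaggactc
The window held 1 match, at position -7 relative to the start.

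Other glutathione transferases were mixed. Across all 19 tested Gst genes, 5 were higher (26.3%), 9 lower (47.4%) and 5 not called, beside 27.4% higher and 25.4% lower of all tested genes. The pseudogene Gstp-ps is among those not called. Gsto1, the omega-class gene that leads the family, had 475, 491 and 491 CPM with palmitate, against 479, 472 and 481 CPM with vehicle, and was not called (log2 fold change 0.03, 95% interval -0.01 to 0.06). Its neighbour Gsto2 had 4.83, 4.97 and 5.20 CPM with palmitate, against 3.90, 2.82 and 3.46 CPM with vehicle, and was higher (edgeR log2 fold change 0.57, SE 0.129, adjusted p = 0.000114). Gstt1 of the theta class rose by 0.43, and Gstz1, which also isomerises maleylacetoacetate in tyrosine breakdown, by 0.23 on the log2 scale. In the mu class 1 of 7 tested genes was higher and 4 lower. Gstm6 had 0.626, 0.621 and 0.969 CPM with palmitate, against 1.84, 2.00 and 1.25 CPM with vehicle (edgeR log2 fold change -1.19, SE 0.244, adjusted p = 2.15e-05). Gstm1, the most abundant of the class, averaged 126 ± 7.87 CPM with palmitate and 148 ± 8.45 CPM with vehicle (SD, n = 3 each), and its call (adjusted p = 0.0350, edgeR) was lost without vehicle replicate 1 or 3 or palmitate replicate 2. Gstm5 (0.23) lost its call with DESeq2 and without vehicle replicate 2 or palmitate replicate 1, and Gstm7 (-0.50) with DESeq2 and without palmitate replicate 2. Gstp1 (0.16) and Gstp2 (-1.31) of the pi class went opposite ways, but 33.7% and 54.3% of their stretches are shared, and Gstp2, at 0.266 CPM with palmitate and 0.673 CPM with vehicle, lost its call with DESeq2.

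The microsomal transferases Mgst1 and Mgst2, of which the second also makes leukotriene C4, fell by less. Mgst1 had 21.5, 25.8 and 26.6 CPM with palmitate, against 30.8, 31.5 and 31.2 CPM with vehicle (edgeR log2 fold change -0.34, SE 0.0530, adjusted p = 7.7e-08). Mgst2 averaged 58.8 ± 2.37 CPM with palmitate and 69.1 ± 0.868 CPM with vehicle (SD, n = 3 each). Mgst3 was slightly higher in every palmitate library, at 38.8 to 40.5 CPM beside 36.5 to 38.0 CPM with vehicle, but was not called (adjusted p = 0.0557, edgeR).

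Among glucuronosyltransferases, which attach glucuronate, both tested Ugt2b genes were called lower, beside 25.4% of all tested genes, and Ugt2b36 was not tested. Ugt2b34 carried 89.0% of the family's CPM with palmitate and 89.2% with vehicle. It had 31.2, 30.7 and 32.0 CPM in the palmitate libraries, against 44.8, 45.2 and 43.3 CPM in the vehicle libraries (edgeR log2 fold change -0.51, SE 0.0429, adjusted p = 4.32e-18). Ugt2b35 had 0.358, 0.399 and 0.528 CPM with palmitate, against 2.05, 1.32 and 1.48 CPM with vehicle, with no overlap (edgeR log2 fold change -1.88, SE 0.277, adjusted p = 1.05e-08). The 3 tested Ugt1a genes were each below 3 CPM and not called, with overlapping groups. They share 52.1% to 79.8% of their stretches with each other, so their counts are uncertain.

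Sulfotransferases attach sulfate, and 2 of 3 tested genes were called lower, at low levels, beside 25.4% of all tested genes. Sult1c2 had 0.761, 0.799 and 0.837 CPM with palmitate, against 1.58, 1.68 and 2.22 CPM with vehicle (edgeR log2 fold change -1.19, SE 0.230, adjusted p = 6.28e-06). Sult1a1, the phenol sulfotransferase, had 0.358, 0.666 and 0.572 CPM with palmitate, against 1.00, 1.64 and 0.923 CPM with vehicle (edgeR log2 fold change -1.16, SE 0.287, adjusted p = 0.000386). Both were lower in every palmitate library. Sult2b1, which sulfates cholesterol and made up 95.8% of the family's CPM with palmitate and 91.6% with vehicle, averaged 31.3 ± 0.907 CPM with palmitate and 33.3 ± 1.84 CPM with vehicle (SD, n = 3 each) and was not called (95% interval of the log2 fold change -0.18 to 0.00).

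**Figure D3:**
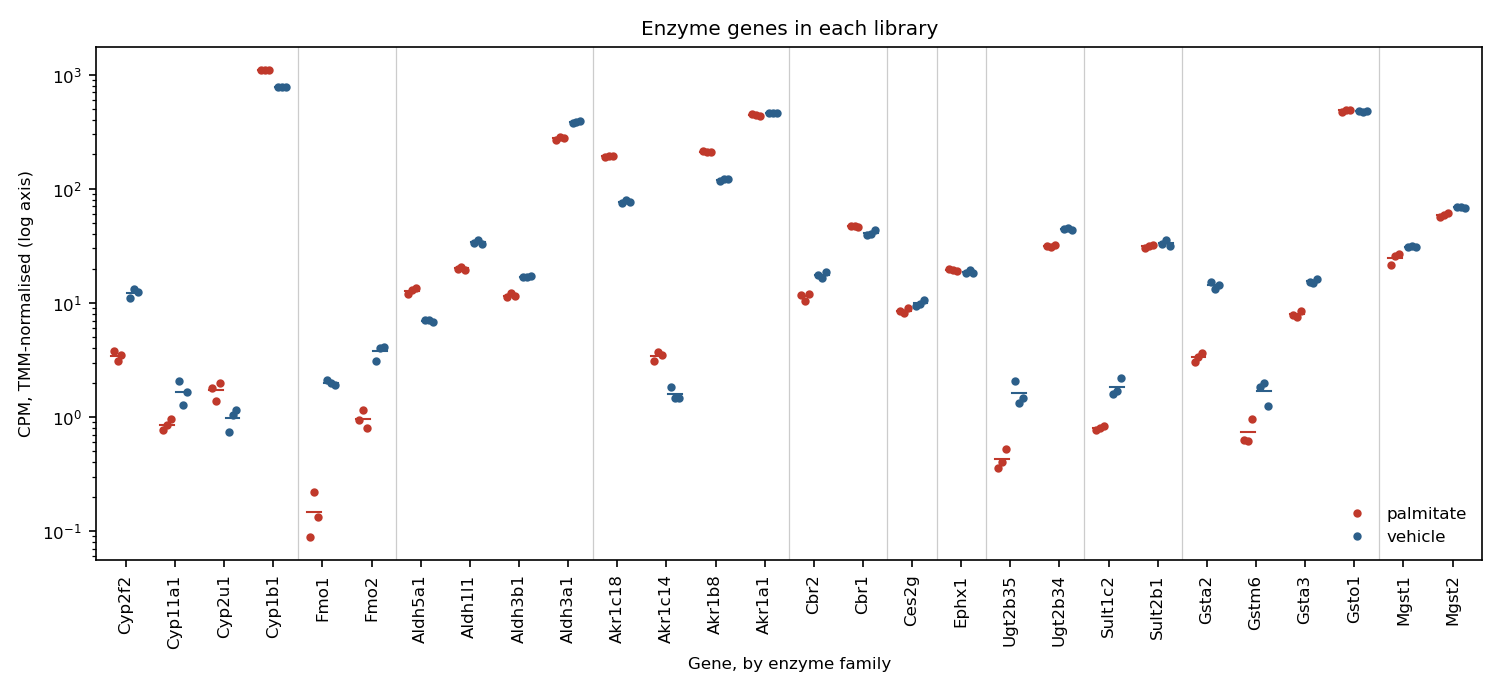
CPM (log axis, TMM-normalised) of enzyme genes in each library, by family. Each point is 1 library, palmitate left of vehicle, and bars are group means (n = 3 each). Fmo1, Gsta2, Fmo2, Ugt2b35 and Cyp2f2 lie lower and Akr1c18 higher in every palmitate library, whereas Gsto1, Ephx1 and Sult2b1 were not called.

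Many of these families lie in arrays of duplicated genes, and neighbours did not always move together. By gene order in RefSeq, 47 tested enzyme genes formed 17 groups with at most 5 other protein-coding genes between neighbours. Groups were formed whatever the family, and some join different families, such as Aldh9a1 with Mgst3 and Akr7a5 with Aldh4a1. Not all 17 are therefore arrays of duplicated genes. In the Akr1c array on chromosome 13, Akr1c14 and Akr1c18 were higher, Akr1c13 (-0.47) and Akr1c12 (-0.29) lower, and Akr1c19 and Akr1e1 not called. Of the stretches of Akr1c12 and Akr1c13, 28.6% and 24.2% also occur in another gene, so their values are uncertain. On chromosome 1, the adjacent Fmo4, Fmo1 and Fmo2 all fell, with log2 fold changes of -1.47, -3.70 and -1.97. On chromosome 6, Akr1b3, Akr1b8 and Akr1b10 were all higher, the last with the unstable call given above. On chromosome 9, Gsta4, Gsta1 and Gsta2 were all lower, by amounts that differ. On chromosome 3, the Gstm array ran from 0.23 in Gstm5 to -1.19 in Gstm6 within neighbouring genes. The arrays were read from the same fit, and no test compared neighbours with other gene pairs.

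**Figure D4:**
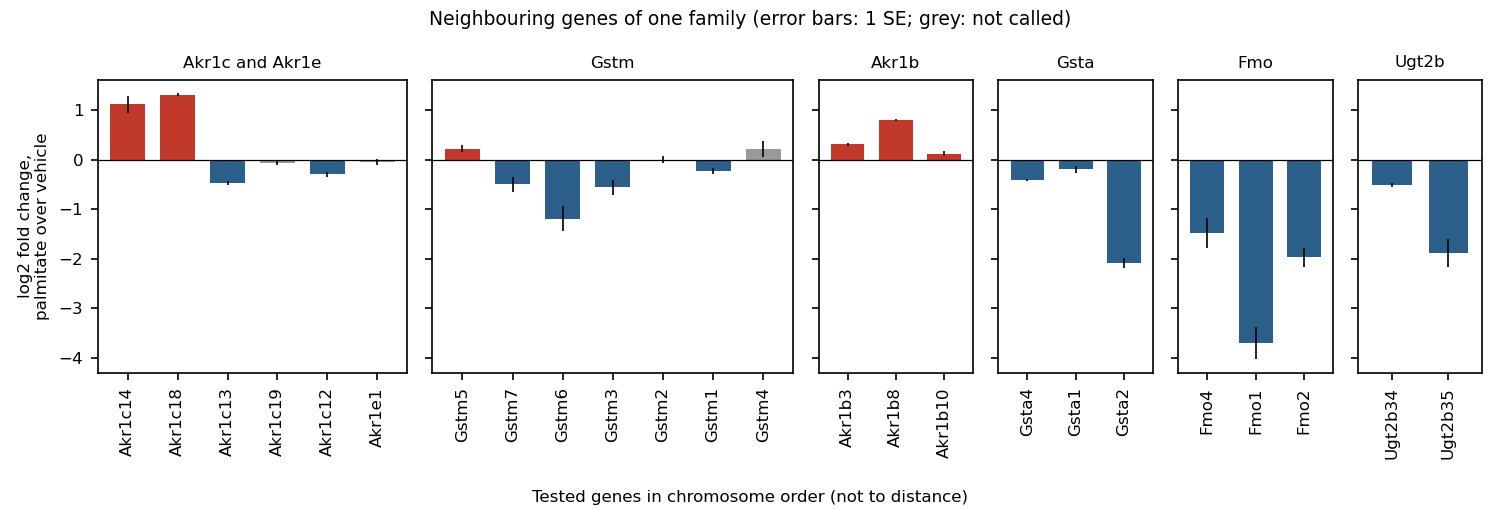
Log2 fold change, palmitate over vehicle, of tested genes in 6 arrays of one family, in chromosome order and not to distance. Bars start at 0, lines are 1 standard error, and grey bars were not called. The Akr1c and Gstm panels hold genes of both signs, while the Fmo, Gsta and Ugt2b panels hold falls and the Akr1b panel rises.

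Among regulators of these genes, the aryl hydrocarbon receptor gene rose and the vitamin D receptor gene fell. Of 30 sensors and partners listed, 23 were tested, with 8 higher, 7 lower and 8 not called and a median log2 fold change of -0.04, beside 0.00 for all tested genes. That is 34.8% higher and 30.4% lower, where 27.4% and 25.4% of all tested genes were. Ahr, the receptor for dioxins and aromatic hydrocarbons, had 247, 243 and 239 CPM in the palmitate libraries, against 148, 149 and 148 CPM in the vehicle libraries (edgeR log2 fold change 0.71, SE 0.0214, adjusted p = 5.71e-47). Every palmitate library was above every vehicle library. Among its other known targets, Tiparp fell by 0.22 on the log2 scale. Ahrr, which represses the receptor, averaged 31.0 ± 2.01 CPM with palmitate and 32.5 ± 0.123 CPM with vehicle and was not called (SD, n = 3 each). Vdr, the vitamin D receptor, fell by 0.54, and the nuclear receptor gene Hnf4a rose by 0.37. The drug sensors Nr1i2 and Nr1i3, which encode PXR and CAR, were below 1 CPM and not tested.

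Of 29 tested genes that supply electrons and cofactors, 14 were higher, 6 lower and 9 not called, with a median log2 fold change of 0.11. The shares were 48.3% higher and 20.7% lower, beside 27.4% and 25.4% of all tested genes. Ugdh, which makes the glucuronate donor, averaged 426 ± 5.78 CPM with palmitate and 366 ± 1.21 CPM with vehicle, and Gss, the last enzyme of glutathione synthesis, 81.5 ± 2.43 and 60.1 ± 1.17 CPM. Cyb5b, an outer mitochondrial cytochrome b5, averaged 1064 ± 4.97 CPM with palmitate and 929 ± 5.57 CPM with vehicle (SD, n = 3 each). Against these, Por, the reductase that feeds electrons to microsomal P450 enzymes, fell by 0.19, and Gclc, the catalytic subunit of the first step of glutathione synthesis, by 0.29 on the log2 scale. Gclm, the other subunit of that step, rose by 0.22, and Gsr, the gene of this list with the smallest p, by 0.32. Nqo1, a quinone reductase, averaged 1.52 CPM with palmitate and 1.64 CPM with vehicle and was not called.

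Transporters gave 5 higher, 6 lower and 5 not called of 16 tested. In all, 68.8% were called, beside 52.8% of all tested genes. Abcc6 averaged 2.31 ± 0.0985 CPM with palmitate and 8.62 ± 0.337 CPM with vehicle (SD, n = 3 each) (edgeR log2 fold change -1.90, SE 0.120, adjusted p = 5.31e-25). Abcc4, an exporter of conjugates and cyclic nucleotides, had 237, 247 and 235 CPM with palmitate, against 326, 315 and 326 CPM with vehicle (edgeR log2 fold change -0.43, SE 0.0198, adjusted p = 2.77e-33). Abcg2, the breast cancer resistance protein, fell to 19.3 ± 0.892 CPM with palmitate, against 29.1 ± 1.58 CPM with vehicle (SD, n = 3 each). The prostaglandin carrier gene Slco2a1 rose by 0.35 on the log2 scale. Without palmitate replicate 1 the number called was 7, where Abcb1a, Abcb1b, Abcc1 and Slco3a1 were lost.

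Genes of mature intestinal cell types moved in the same samples. The list of absorptive, goblet and tuft cell genes summed to 50.9 to 54.0 CPM with palmitate and 90.6 to 95.0 CPM with vehicle. Of its 7 tested members 1 was higher, 4 lower and 2 not called, beside 27.4% higher and 25.4% lower of all tested genes. Alpi, Sis and Aqp8 were below 1 CPM in both groups. The part of these cell types in the changes of the enzyme genes was not tested.

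The authors' own test gave the same signs. In the authors' deposited table, 48 of the 85 tested enzyme genes had a q-value under 0.05, and all 48 were also called here with the same sign. The largest difference in log2 fold change from the authors' deposited table was 0.0499.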

How the data were processed

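Polyadenylated RNA of 3 palmitate and 3 vehicle samples was sequenced from strand-specific libraries, per the labels' protocols. FastQC 0.11.8, STAR 2.6.1, HTSeq (version not given) and DESeq2 1.34.0 were used with build mm39, per the submitters' processing notes. The strand setting of the counting is not given in the sources used. The deposited table holds raw counts per gene, from the authors. The authors' deposited gene results hold, per gene, the DESeq2 log2 fold change with its p-value and q-value and a score (signed −log10 of p), and their deposited gene set results hold enrichment scores and q-values, per the column description.

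Genes and lists were chosen with earlier results of these data known. The test was that of edgeR 4.0.16 under R 4.3.3 (filterByExpr, minimum count 10; TMM; robust glmQLFit and glmQLFTest, two-sided; Benjamini-Hochberg over 14987 genes, threshold 0.05). CPM is TMM-normalised, SE is the absolute log2 fold change over the root of F, and 95% intervals are 1.96 SE wide on each side. Named genes were the 3 called genes of each family, of at least 1 CPM, with the greatest change, its most abundant gene, and 4 called genes per list by smallest p. Other members were added in short form. Exon lengths and shared 50-base stretches came from GENCODE transcripts of an earlier build, so gene positions are given for promoter windows alone. Stretches shared above 20% make a value uncertain, which held for 13 tested genes.

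Replicate libraries differed by more than counting noise (chi-square over degrees of freedom 1.20 to 1.38, over genes with at least 20 summed counts), so none was taken for a copy. The common biological coefficient of variation stood at 1.28%. On counts simulated for this comparison (14809 genes tested), the share recovered was 64.0% for 1.2-fold changes, 86.0% for 1.5-fold, 98.0% for 2-fold and 95.8% for 3-fold, beside 7 false calls. The simulation changed 200 genes and gave every gene the common dispersion. In the data 7915 genes were called and dispersion differs by gene, so these rates check the code and need not hold for the data. Tried as well were DESeq2 1.42.0, limma-voom (limma 3.58.1), glmTreat against 1.2-fold, size factors by median of ratios, a fit of unfiltered genes, a replicate block, thinning to the shallowest total, and omission of each library. Figures were drawn with matplotlib 3.10.9.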

Additional observations from a re-analysis of the deposited data

How the results depend on the processing

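Of 59 called enzyme genes, 46 kept their call and sign under all 12 alternatives other than glmTreat, and no called enzyme gene changed sign. The 13 that lost the call in at least 1 of them are named in the results with the settings. Calls were gained by Gsto1 and Mgst3 without palmitate replicate 1, Sult2b1 without vehicle replicate 3 and Cyp4f13 without palmitate replicate 2. Mgst3 also gained a call with no count filter, and Cyp4f13 after thinning. DESeq2 called 49, voom 59, thinned libraries 58, and the count without a filter was 60. The replicate numbers did not pair the samples: deviations of same-numbered libraries correlated at -0.006, 0.000 and 0.016, and with the number as a block 59 enzyme genes and 7933 of all genes were called. Against a minimum change of 1.2-fold, glmTreat called 2275 of all genes, 33 enzyme genes (11 higher, 22 lower), 3 sensors, 2 cofactor genes and 5 transporters, where the test against no change called 7915, 59 (24 and 35), 15, 20 and 11. That test asks for a larger change. DESeq2 called 7 transporters, losing Abcb1a, Abcb1b, Abcc1 and Slco3a1, and the cause was not tested. Leaving out single libraries gave 7260 to 7406 calls over all genes, 54 to 58 enzyme genes (21 to 23 higher, 32 to 36 lower), 11 to 15 sensors, 20 to 21 cofactor genes and 7 to 12 transporters, the lowest without palmitate replicate 1. The gene with the highest CPM was also the highest per kilobase in 10 of 11 families, and Mgst2 led in the other by CPM. Genes near 1 CPM rest on about 20 counts per library, where small changes were not detectable.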

Other observations

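Gene sets tested by the authors hold many of these enzyme genes, and the authors' deposited table gives their q-values. Steroid hormone biosynthesis was Up (q = 0.00499), with Akr1c18, Cyp1b1 and Hsd17b12 as its leading genes. Drug metabolism by cytochrome P450 was Down in the authors' deposited table (q = 0.118), and all 14 of its leading genes are enzyme genes described above, among them Aldh3a1, Gsta2, Ugt2b34, Fmo2 and Fmo1. Metabolism of xenobiotics by cytochrome P450 was Down in the authors' deposited table as well (q = 0.647), with 12 leading genes, all of them described above or of the same families. Glutathione metabolism had the direction Up in the authors' deposited table (q = 0.687), and 0 of its 11 leading genes are of these families. Of the sets named here, only steroid hormone biosynthesis had a q-value under 0.05, so the other directions are no established change.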
